A study of Homo sapiens with 4 samples.

Results

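The input libraries of U2OS cells, an established human osteosarcoma line, record the RNA that was present in the lysate before any antibody was added. They were chosen by their sample labels and are 2 of the 4 libraries of the series, which asked which RNAs are recovered with LC3B, a protein of the autophagosome membrane, by native nuclear RNA immunoprecipitation. One input accompanied the pull-down with non-specific IgG (the IgG input) and the other accompanied the pull-down with the LC3B antibody (the LC3B input), and neither input had an antibody of its own. The labels give the same line, the same culture in DMEM with fetal bovine serum and no treatment for both, so the only difference the labels name is the pull-down each belongs to. RNA was prepared with a kit for native nuclear immunoprecipitation, and libraries were made from polyadenylated RNA with the SMART-Seq v4 kit for very small amounts of RNA. Each input is 1 library, so the differences below have no replicate check, and calls between the inputs compare these libraries and not conditions. Intervals are exact binomial 95% intervals and cover counting error only, since amplified reads without molecular identifiers are not independent molecules.

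U2OS cells descend from a bone tumour and grow attached, as flat cells with stress fibres. They are widely used to study cell division, DNA repair, the circadian clock and autophagy, and they maintain their telomeres by recombination (the alternative lengthening pathway, ALT) rather than by telomerase. Osteoblasts, the bone-forming cells, are defined by the transcription factors RUNX2 and SP7 and by the bone matrix proteins they secrete.

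The IgG input held 10886762 counted reads and the LC3B input 10782146. Of the 60676 features in the tables, 25584 had a read in at least 1 input and 20445 in both. The 2502 features read in the IgG input alone had a median of 1 read, and only 26 of them had over 10 reads. Levels between genes are given in TPM (transcripts scaled to a fixed total per library), a unit that corrects for transcript length, and a gene is called expressed here at 1 TPM or more in both inputs. At this threshold 13685 features were expressed, 22.6% of all features. They included 11215 of 19968 protein-coding features (56.2%) and 1832 of 16880 long non-coding RNA (lncRNA) features (10.9%). The LC3B input alone held 2637 features, of which 30 had over 10 reads.

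Mitochondrially encoded RNAs made up a large share of both inputs. They held 22.8% of the reads of the IgG input (22.78 to 22.83%) and 20.8% of those of the LC3B input (20.75 to 20.80%). The large mitochondrial ribosomal RNA MT-RNR2 alone took 10.2% and 9.31% of all reads. MT-CO3 and MT-CO1, which encode subunits of cytochrome c oxidase, came next by TPM, at 54107 and 49290 TPM for MT-CO3 and at 39124 and 36218 TPM for MT-CO1 in the IgG and LC3B inputs. Mitochondrial RNA lies outside the nucleus in the cell, and these inputs accompany a nuclear protocol. The chromosome 1 pseudogene MTATP6P1, a near copy of mitochondrial sequence, was given 3224 and 3040 TPM, and its reads and those of the mitochondrial gene MT-ATP6 may have been split between them.

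Outside the mitochondrial genome the transcriptome was led by mRNAs of iron storage, the actin cytoskeleton and core metabolism. FTH1 and FTL, the heavy and light chains of the iron store ferritin, headed the list. FTH1 stood at 8981 TPM in the IgG input and 8575 TPM in the LC3B input. FTL stood at 8410 and 8006 TPM, so that both chains were a little lower in the LC3B input. COX6A1, a nuclear-encoded subunit of cytochrome c oxidase, stood at 7143 and 9085 TPM and was the first gene of the LC3B input but the fourth of these nuclear genes in the IgG input. Actin and the small proteins that bind it followed: TMSB4X at 7536 and 7584 TPM, and ACTB at 7120 and 6623 TPM. The glycolytic enzyme GAPDH, the membrane-binding annexin ANXA2, the prolyl isomerase PPIA and the class I antigen-presenting subunit B2M completed the 9 highest, between 4842 and 6670 TPM in the IgG input.

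**Figure D1:**
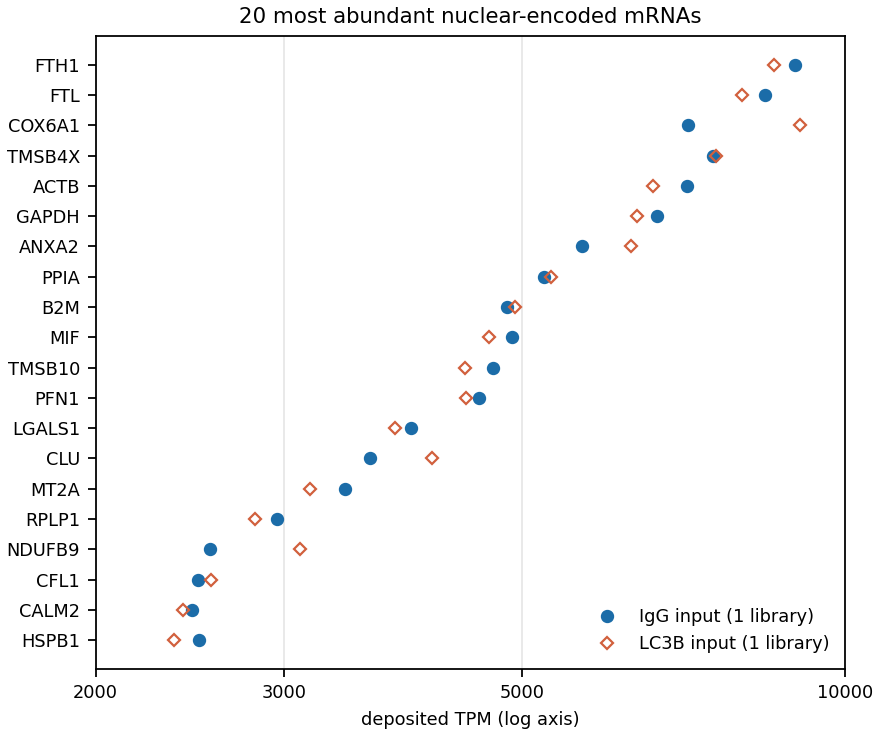
Deposited TPM (log axis) of the 20 nuclear-encoded protein-coding genes of highest mean TPM, with a filled circle for the IgG input and an open diamond for the LC3B input. COX6A1, CLU and NDUFB9 lie to the right in the LC3B input, while FTH1, FTL and ACTB lie slightly to the left.

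The remaining genes of the first 20 encode the cytokine MIF, the actin-binding proteins TMSB10, PFN1 and CFL1, the galectin LGALS1, the secreted chaperone CLU, the metal-binding protein MT2A, the ribosomal protein RPLP1, the complex I subunit NDUFB9, calmodulin (CALM2) and the small heat-shock protein HSPB1. HSPB1, the last of the 20 by mean level, stood at 2497 and 2368 TPM. The LC3B to IgG folds of the 20 genes, on counts scaled to each library's total (CPM), lay between 0.920 and 1.26. The interval lay above 1 for 5 of them and below 1 for 12. The widest difference was that of COX6A1, 25390 reads against 31675 and 1.26-fold (1.24 to 1.28). The ratio of CPM to TPM, which scales with transcript length, was below 1 for 18 of the 20, with a median of 0.554 against 1.78 over the protein-coding genes of at least 1 CPM. Part of this is built in, since the 20 were ranked by TPM. Across 5 equal groups of protein-coding genes by that ratio, from short to long, the median CPM went from 35.7 to 24.6, 20.9, 18.2 and 11.7.

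Expression was concentrated in few genes. The 10 most abundant nuclear features held 6.27% (IgG input) and 6.08% (LC3B input) of nuclear-encoded reads, and the first 1000 held 52.6% and 52.0%. By TPM, 425 and 436 genes made up 50 percent of the nuclear-encoded total. Of 19955 nuclear protein-coding features, 4002 had no read in either input, 4333 were read but lay below a mean of 1 TPM, 5300 lay from 1 to 10 TPM and 4934 from 10 to 100 TPM. Another 1298 lay from 100 to 1000 TPM, and 88 reached 1000 TPM.

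The promoters of these genes differed by expression level. RefSeq promoter windows (build GRCh38.p14, 250 bases before and 50 after the start) with a single listed start were matched by symbol for 11132 of 19918 protein-coding features. The median GC content was 52.3% for genes with no read and 66.0% for those of 1 to 10 TPM. The median ratio of observed to expected CpG was 0.272 for unread genes, 0.601 for those read below 1 TPM, and 0.837 to 0.928 in the classes above. Six-letter or shorter core elements were searched on both strands and over the whole window: TATAAA for the TATA box, GGGCGG for the GC box and CCAAT for the CCAAT box, with the longer CCGGAAG for the site of ETS factors. A match is a description of the letters and not a shown binding site, and the motifs searched may overlap one another or lie within CpG-rich stretches.

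Over the whole window and both strands, TATAAA was most frequent in promoters of unread genes and least frequent in those of mid-range genes. TATAAA was found in 10.5% of all these promoters. It was found in 22.8% of promoters of unread genes (21.1 to 24.6%), 5.41% at 1 to 10 TPM (4.61 to 6.30%) and 4.23% at 10 to 100 TPM (3.52 to 5.03%). The share was 7.24% at 100 to 1000 TPM (5.52 to 9.30%) and 15.7% of the 51 promoters at 1000 TPM or more (7.02 to 28.6%), where the small number leaves a wide interval. Between 40 and 16 bases before the start, on the strand of the gene, TATAAA was found in 10.0% of promoters of unread genes. There the share was 1.62% at 1 to 10 TPM, 1.75% at 10 to 100 TPM and 3.49% at 100 to 1000 TPM. It was 11.8% (6 of 51) at 1000 TPM or more, against 4.51% of all. CCGGAAG followed another course, from 2.99% of unread genes (2.34 to 3.77%) to 29.6% at 100 to 1000 TPM (26.4 to 33.0%), against 15.2% of all. GGGCGG was found in 29.0% of unread and 72.8% of 1 to 10 TPM promoters, against 59.8% of all. CCAAT varied little, between 35.4% and 44.0%, against 37.5% of all.

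**Figure D2:**
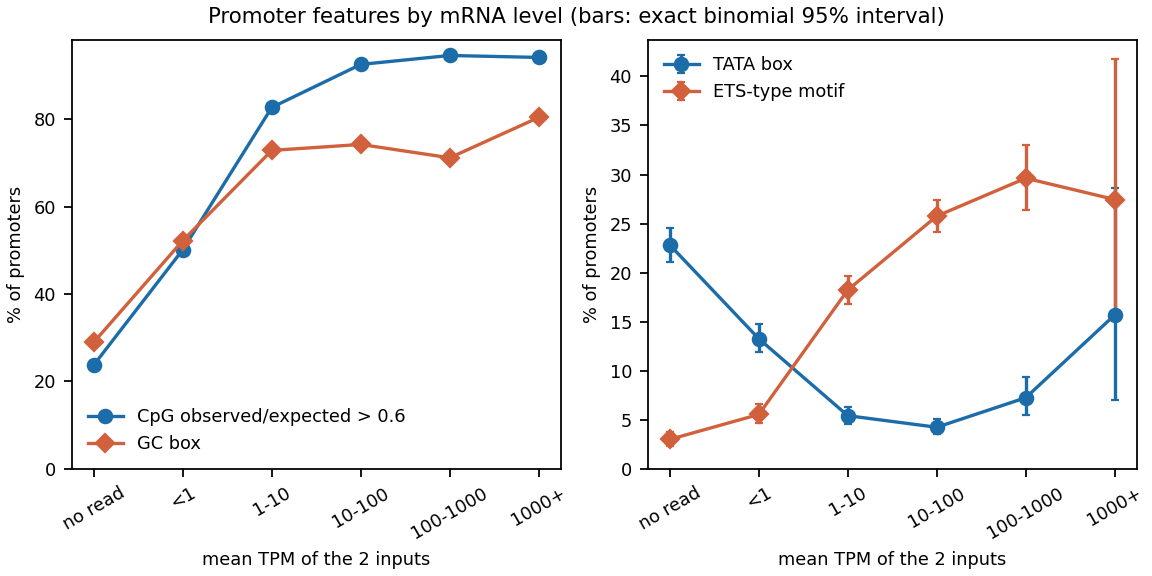
Share of RefSeq promoters, in percent, by class of mean TPM over the 2 inputs: at left promoters with an observed to expected CpG ratio above 0.6 and promoters with GGGCGG, at right those with TATAAA or CCGGAAG with exact binomial 95% intervals. The share with TATAAA anywhere in the window falls from 22.8% to 4.23% and is 15.7% in the highest class, while the ETS-type share climbs from 2.99% to 29.6% at 100 to 1000 TPM.

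The 120 bases before the start are shown for 3 of the 20 nuclear-encoded protein-coding genes of highest mean TPM. Each has a single listed start, with TATAAA between 40 and 16 bases before it, and lets the element be seen in place. The 3 are examples and not a full ranking. They are ANXA2 (chr15:60397987-60398106, minus strand), PPIA (chr7:44796561-44796680, plus strand) and MT2A (chr16:56608464-56608583, plus strand). Capitals mark the TATA, GC and CCAAT boxes on either strand, so that some appear in their reverse-strand forms, CCGCCC for the GC box or ATTGG for the CCAAT box. TATAAA begins 31 bases before the start in ANXA2 and PPIA and 29 bases before it in MT2A.
ANXA2: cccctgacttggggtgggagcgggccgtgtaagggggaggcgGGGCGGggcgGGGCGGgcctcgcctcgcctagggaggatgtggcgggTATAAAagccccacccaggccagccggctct
PPIA: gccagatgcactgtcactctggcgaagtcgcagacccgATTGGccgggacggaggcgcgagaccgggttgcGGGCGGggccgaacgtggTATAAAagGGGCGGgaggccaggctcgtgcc
MT2A: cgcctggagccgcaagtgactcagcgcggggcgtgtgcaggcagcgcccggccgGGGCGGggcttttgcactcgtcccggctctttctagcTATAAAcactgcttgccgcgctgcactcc

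FTL (chr19:48965189-48965308, plus strand) and COX6A1 (chr12:120437993-120438112, plus strand) are, among genes with a single listed start, the most abundant without TATAAA in the window and are shown against them. Both hold CCAAT and GC box letters.
FTL: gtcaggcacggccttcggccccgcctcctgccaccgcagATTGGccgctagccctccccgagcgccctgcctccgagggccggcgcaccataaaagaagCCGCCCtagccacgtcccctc
COX6A1: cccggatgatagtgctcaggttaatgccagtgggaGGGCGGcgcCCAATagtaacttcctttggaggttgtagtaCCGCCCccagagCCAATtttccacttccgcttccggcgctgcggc

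Among lncRNAs the highest values lay on features that overlap abundant mRNAs on the other strand. AC011603.3 stood first at 3623 and 3613 TPM and overlaps the tubulin genes TUBA1A and TUBA1B. MALAT1, a nuclear-retained RNA of nuclear speckles, stood second at 2793 and 2587 TPM. AC006064.4, opposite GAPDH, came next at 1402 and 1381 TPM. In all, 5 of the first 6 lncRNAs lay opposite a gene of over 1000 reads, the other 4 partners being GAPDH, TUBB, UBB and TUBA1C. Whether reads were counted by strand is not given in the sources used here, so reads of these lncRNAs and of the mRNAs opposite cannot be told apart. Of all 1832 expressed lncRNAs, 1204 (65.7%) overlapped a read feature on the other strand. MALAT1, DANCR at 254 and 244 TPM, MIR4435-2HG at 229 and 256 TPM and SFTA1P at 222 and 238 TPM had no such abundant partner. NEAT1, the scaffold of paraspeckles, stood at 44.8 and 61.1 TPM, with 802 and 895 reads. Of the 32 known lncRNAs and other non-coding RNAs listed, 26 were expressed.

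By biotype, protein-coding features outside the mitochondrial genome held 96.3% and 96.2% of nuclear-encoded reads, lncRNAs 2.66% and 2.71%, and pseudogenes 0.992% and 1.01%. The median level of expressed features was 13 TPM for protein-coding genes, 3.82 TPM for lncRNAs and 4.14 TPM for pseudogenes. The biotype of the table is not always the usual one: LDHB, the lactate dehydrogenase subunit, stood at 624 and 678 TPM under the label of a polymorphic pseudogene, as did MDH1 and GPX1. Such labels touched 9 features at 1 TPM or more.

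The labelled osteosarcoma origin was checked against marker genes, and those of the osteoblast were present only in part. Of 20 osteoblast lineage genes, 7 were expressed (35 percent, against 56.2% of all protein-coding features), 13 lay below 1 TPM in both inputs and 7 of those had no read at all. SPARC (osteonectin), an abundant matrix protein of bone and of many mesenchymal cells, stood at 1998 and 2393 TPM. RUNX2, the transcription factor that starts the lineage, stood at 6.59 and 8.49 TPM. ALPL, the alkaline phosphatase of mineralising cells, stood at 9.86 and 9.89 TPM. SPP1 (osteopontin) was read 76 and 134 times, at 5.33 and 9.55 TPM. Several other genes of the list were at or near 0. SP7, the factor that acts after RUNX2, had no read in either input, nor had the bone sialoprotein gene IBSP, DMP1, POSTN, DLX5, DLX6 or TWIST1. At 3 reads, a count of 0 allows a level of up to 0.276 CPM (IgG input) or 0.278 CPM (LC3B input). BGLAP (osteocalcin) was listed at 0 and 0.57 TPM. Type I collagen was uneven, with COL1A1 at 17.5 and 21.4 TPM and COL1A2, the gene of its second chain, at 0.04 and 0 TPM.

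Mesenchymal markers were the better represented group, with 16 of 20 expressed (80 percent). The contrast was smaller at 5 TPM or more in both inputs. There 10 of the 20 mesenchymal genes remained, beside 6 of 20 osteoblast and 5 of 13 epithelial genes. LGALS1, S100A6, VIM, THY1 and S100A4 all exceeded 100 TPM in both inputs. Vimentin (VIM), the intermediate filament of mesenchymal cells, stood at 213 and 207 TPM. CD44, the hyaluronan receptor, stood at 61.4 and 59.5 TPM. N-cadherin (CDH2) at 11.2 and 11.3 TPM and the transcription factors SNAI2 and ZEB1 were expressed at lower levels. NT5E (CD73), commonly used to define mesenchymal stromal cells, was at 0.12 and 0 TPM, and PRRX1 at 0.27 and 0.13 TPM.

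Genes of other cell types were mostly low, with epithelium the main exception. Of 13 epithelial genes 7 were expressed (53.8%) and 2 reached 100 TPM in both inputs. That share was larger than the 35 percent of the osteoblast list and near the 56.2% of all protein-coding features. The 8 lists of other cell types (cartilage, fat, muscle, epithelium, blood, endothelium, neural cells and hepatocytes) held 75 genes, of which 8 reached 10 TPM in both inputs. KRT8 and KRT18, the paired keratins of simple epithelia, were the highest of them. KRT8 stood at 993 and 950 TPM, and KRT18 at 917 and 868 TPM, above vimentin in TPM. KRT7 stood at 20.6 and 22.1 TPM and CLDN4, a tight-junction claudin, at 26.7 and 37.5 TPM. The epithelial regulators ESRP1 and GRHL2 had no read, and E-cadherin (CDH1) was at 0.72 and 1.92 TPM. EPCAM, an epithelial adhesion molecule, stood at 10.9 and 9.62 TPM. SERPINA1, the antiprotease secreted by hepatocytes, stood at 87.3 and 96.5 TPM, whereas ALB, APOB, TTR and CYP3A4 had no read and TF had 1 read in all. Of 8 cartilage genes 3 were expressed, SOX9 at 20.5 and 21.9 TPM, MATN3 at 5.73 and 7.65 TPM and SOX5 at 4.05 and 3.83 TPM, while COL2A1 was at 0.64 and 0.05 TPM and COMP had no read. Of 7 fat cell genes 2 were expressed, the receptor PPARG at 13.5 and 12.3 TPM and the lipase LPL at 8.13 and 8.80 TPM, while FABP4 and ADIPOQ had no read. Of 10 neural genes 3 were expressed, with the neural-type tubulin TUBB3 at 29.97 and 30.7 TPM. No endothelial gene was expressed in both inputs, and of 12 blood and immune genes only CD68, a lysosomal protein that is not restricted to macrophages, was (2.82 and 3.66 TPM). In a bulk library, fewer cells of a type and less RNA per cell cannot be told apart.

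**Figure D3:**
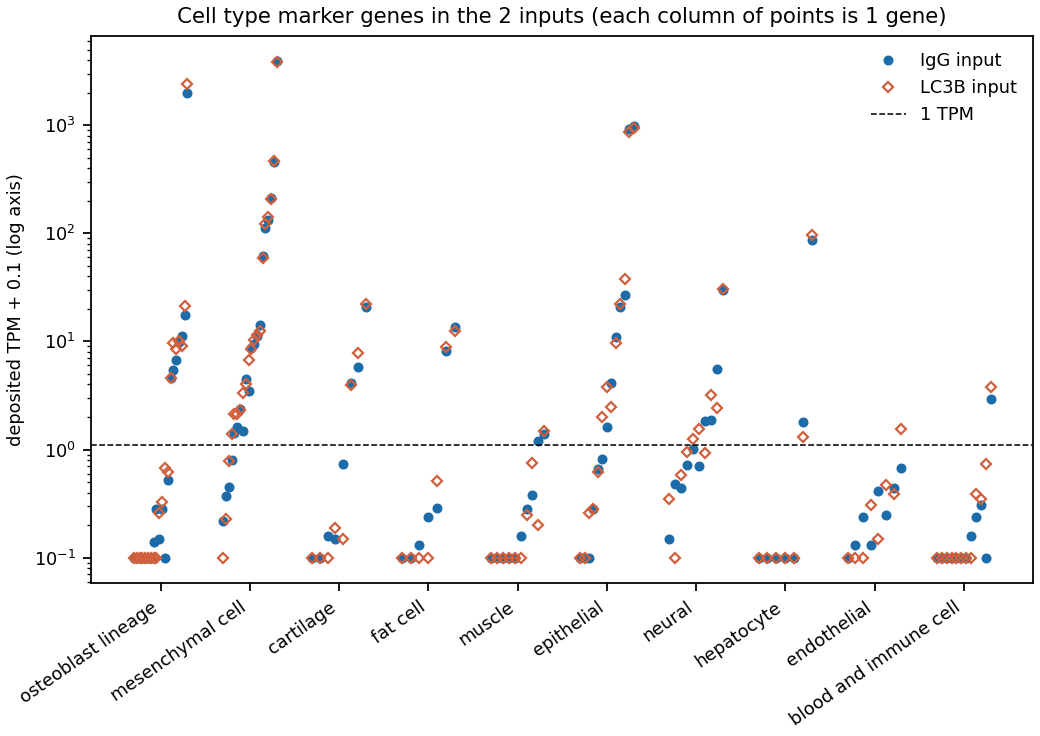
Deposited TPM plus 0.1 (log axis) of the marker genes of 10 cell type lists, 1 column of points per gene, filled circles for the IgG input and open diamonds for the LC3B input, with a dashed line at 1 TPM. The mesenchymal list lies mostly above the line (16 of 20), the osteoblast list is split (7 of 20), and KRT8 and KRT18 stand out in the epithelial list.

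The bases before the single listed starts of KRT8 (chr12:52926470-52926589, minus strand) and IBSP (chr4:87799434-87799553, plus strand) are shown for an expressed gene outside the labelled lineage and an unread gene of it. Over the 300-base windows the observed to expected CpG ratio was 0.111 for KRT8 and 0.304 for IBSP, both far below the 0.776 median of all promoters. Counts per gene do not show which start the KRT8 reads came from, so its ratio cannot be set against its level. The capitals of IBSP mark CCAAT and TATAAA in their reverse-strand forms, ATTGG and TTTATA, and KRT8 held none of the 3 core elements in these 120 bases.
KRT8: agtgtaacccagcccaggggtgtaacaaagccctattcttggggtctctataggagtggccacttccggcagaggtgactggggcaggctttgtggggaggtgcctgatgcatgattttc
IBSP: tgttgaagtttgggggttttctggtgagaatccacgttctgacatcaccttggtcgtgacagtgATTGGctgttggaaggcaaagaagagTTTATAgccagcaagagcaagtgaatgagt

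Homeobox genes of the HOX clusters, which carry positional identity along the body axis, were expressed for 22 of 39 members (56.4%), near the 56.2% of all protein-coding features. HOXC had 7 of 9 members expressed, HOXA 6 of 11, HOXB 5 of 10 and HOXD 4 of 9. HOXB7 was the highest at 49.0 and 44.6 TPM, followed by HOXC9 at 18.7 and 16.4 TPM. All other members lay below 15 TPM, and HOXB1, HOXC5 and HOXD4 had no read.

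All 10 proliferation markers were expressed, as were all 24 mitosis genes and all 24 DNA replication genes. The share over all protein-coding features, 56.2%, is the background for these and the list counts that follow. TYMS, which makes thymidylate, stood at 766 and 789 TPM. The mitotic cyclin CCNB1 stood at 490 and 517 TPM and its kinase CDK1 at 380 and 374 TPM. MKI67, a usual proliferation marker of a very long mRNA, stood at 9.35 and 13.1 TPM. Of the 19 cyclins, kinases and inhibitors of the G1 and S phases, 17 were expressed. CDK4 stood at 164 and 166 TPM and CCND1 (cyclin D1), its partner, at 77.2 and 94.1 TPM. The inhibitor gene CDKN2A (p16 and ARF) had no read in either input, and its neighbour CDKN2B was at 0.28 and 0.30 TPM. CDKN1A (p21) stood at 158 and 180 TPM.

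Of 16 telomere and ALT genes, 14 were expressed. The 2 that were not are the parts of telomerase: TERT, the reverse transcriptase, and TERC, its RNA template, which lacks a long poly(A) tail, had no read. ATRX, the chromatin remodeller whose loss accompanies ALT in many tumours, was read at 71.1 and 67.3 TPM, and its partner DAXX at 28.8 and 29.9 TPM. Counts per gene do not show which exons of ATRX were read. The H3.3 histone genes H3-3B and H3-3A, whose product both deposit, stood at 2124 and 2253 TPM and at 570 and 587 TPM.

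Of 23 clock genes, 18 were expressed. The activator ARNTL (BMAL1) stood at 12.6 and 12.4 TPM, and CLOCK, its partner, at 3.51 and 4.98 TPM. The repressor CRY1 stood at 21.3 and 20.8 TPM. PER2 was at 0.29 TPM in both inputs and CIART had no read. The kinases that act on PER proteins, CSNK1E and CSNK1D, were the highest of the list, with CSNK1E at 78.5 and 73.7 TPM.

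Metabolism and protein turnover were expressed nearly completely. All 78 cytosolic ribosomal protein genes were expressed, 77 of them at 100 TPM or more in both inputs, with a median of 730 and 704 TPM. All 25 proteasome genes, all 21 chaperones, all 17 genes of the tricarboxylic acid cycle and all 16 of cholesterol synthesis were expressed. Of 18 glycolysis genes, only HK2, a hexokinase often raised in tumours, lay below 1 TPM, at 0.35 and 0.33 TPM, while HK1 stood at 16.2 and 19.5 TPM. The elongation factor EEF1A1 stood at 1579 and 1652 TPM. The elongation factor EEF2 of the same list stood at 22.3 and 31.9 TPM, with 479 and 547 reads.

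Of 32 autophagy genes, 29 were expressed. Among the ATG8 family, whose members are joined to lipid on the autophagosome, GABARAP was the highest at 401 and 374 TPM and GABARAPL2 followed at 160 and 153 TPM. MAP1LC3B, which encodes the protein pulled down in this study, stood at 112 and 109 TPM, and MAP1LC3A had no read. The receptor SQSTM1 (p62) stood at 148 and 144 TPM. ULK1, the kinase that starts autophagy, was at 0.36 and 0.70 TPM.

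Among matrix genes, secreted glycoproteins reached higher levels than collagens. Of 29 matrix glycoproteins and crosslinking enzymes, 24 were expressed, with the matricellular protein CCN1 at 228 and 272 TPM below SPARC. Of 18 collagen genes, 11 were expressed (61.1%, near the 56.2% of all protein-coding features) and none reached 100 TPM. The highest was COL4A2, of basement membranes, at 20.2 and 25.8 TPM. The inhibitor TIMP1 led the 16 proteases and inhibitors at 1324 and 1347 TPM, and MMP1, the interstitial collagenase, was at 0.05 and 0 TPM. Integrin ITGB1, the common beta chain of many matrix receptors, stood at 542 and 605 TPM, and no other integrin exceeded 42 TPM.

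Receptors for growth factors were low throughout. Of 28 receptor tyrosine kinases, 18 were expressed (64.3%, against 56.2% of all protein-coding features), all below 13 TPM. AXL was the highest at 11.1 and 12.4 TPM, while EGFR stood at 2.54 and 4.51 TPM. KIT and KDR had no read. Among 23 nuclear receptors, 15 were expressed (65.2%). The receptor PGR had no read and ESR1 was listed at 0 and 0.05 TPM, while the glucocorticoid receptor gene NR3C1 stood at 4.96 and 5.30 TPM. Of 20 Hedgehog and Notch genes, 9 were expressed (45%), and NOTCH1 was at 0.19 and 0.22 TPM.

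Cancer-testis antigens, genes normally confined to the germ line, were expressed for 12 of 17 members (70.6%, against 56.2% of all protein-coding features). XAGE1A stood at 837 and 805 TPM, MAGEA4 at 342 and 348 TPM and PRAME at 265 and 286 TPM. CTAG1B (NY-ESO-1) and SSX2 had no read. XAGE1A and several MAGE genes have near-identical copies, so their values are uncertain. Of 15 imprinted genes, 8 were expressed (53.3%), led by GNAS at 711 and 698 TPM, and MEG3 and DLK1 had no read. H19 stood at 2.09 and 1.34 TPM and IGF2 at 7.62 and 7.32 TPM.

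The inputs differed little from each other. Of 14935 features with a mean of at least 1 CPM, 19 (0.127%) were called higher in the LC3B input, meaning that the lower bound of the interval of the fold was at least 2, and 18 (0.121%) lower, meaning an upper bound of at most 0.5. The median size of the log2 ratio was 0.16. Pearson's r of log2 CPM was 0.987 across these features and 0.995 across the 1795 of at least 100 CPM, as a description across genes, which are not independent replicates. None of the 1795 was called by these bounds. By the weaker rule, an interval that leaves out 1, 2522 features (16.9%) were higher and 933 (6.25%) lower. At 100 CPM or more, 453 of 1795 (25.2%) were higher and 212 (11.8%) lower. These counts of higher and lower features rest on scaling to each library's total and were not recomputed under other scalings. The median log2 ratio of all features was 0.06 with library totals, -0.01 with TMM scaling and 0.02 with totals without mitochondrial genes.

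The measured spread exceeded counting error at every level, and from 10 CPM upward its ratio to counting error grew with abundance. The measured log2 ratios hold a pseudocount of 0.5 CPM, which narrows them at low levels, and the counting SD holds none. Below 10 CPM the excess over counting error is therefore understated. At 1 to 3 CPM the robust SD of the log2 ratio over 2759 features was 0.53 against 0.48 from counting alone, at 3 to 10 CPM 0.36 against 0.27, and at 10 to 30 CPM 0.23 against 0.15. At 30 to 100 CPM it was 0.14 against 0.087, and at 300 to 1000 CPM 0.076 against 0.030. For the 67 features of 1000 CPM or more, among them 10 of the 15 mitochondrial RNAs, it was 0.12 against 0.015, a ratio of 7.77. After the counting part was taken out, the SD left was 0.21 at 1 to 3 CPM, 0.25 at 3 to 10 CPM, 0.069 at 300 to 1000 CPM and 0.12 at 1000 CPM or more. Counting intervals therefore understate the spread over features.

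**Figure D4:**
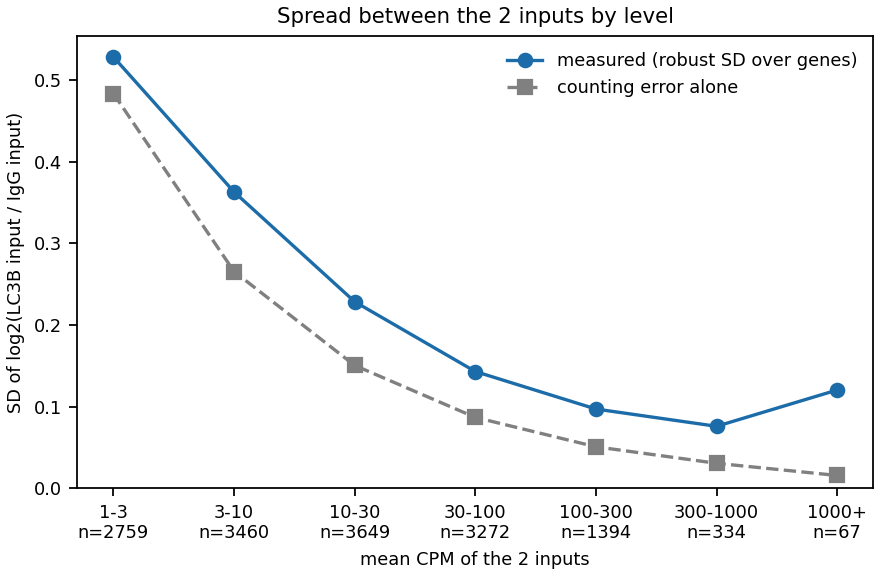
Robust SD over genes of the log2 ratio of the LC3B input to the IgG input (circles) and the SD that counting error alone gives (squares), by mean CPM, with the number of features under each bin. The measured spread is 0.53 against 0.48 in the lowest bin and 0.12 against 0.015 in the highest. The measured ratios hold a pseudocount that narrows them in the low bins.

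The 37 called features were mostly rare, and many shared their locus with another feature. All lay below 49 CPM (highest mean 48.9 CPM), 29 had fewer than 100 reads over both inputs, and 13 had no read in 1 input. Of the 37, 20 (54.1%) overlapped another read feature on the same strand, against 17.3% of all features tested and 19.6% of those of 1 to 10 CPM. Of the 13 with no read in 1 input, 11 overlapped such a feature. When the 20 were summed with their same-strand partners, the folds lay between 0.299 and 1.93, with a median of 1.04. The interval then held 1 for 13 of them, and 1 of the 20, STAG3L1, was still past the bounds. Where the partners held far more reads than the called feature, the sum follows the partners whatever that feature did. AC087721.2, for example, had 131 and 0 reads within sums of 6717 and 6863. For such features the sum cannot show whether reads moved between overlapping features. How reads of overlapping features were assigned is not given in the sources used here, and its part in these differences was not tested.

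The plainest case is RN7SK, the 7SK RNA that holds back the elongation factor P-TEFb. It lies at chr6:52995621-52995948 and the features RN7SK and AL162581.1 (chr6:52995620-52995950) cover the same bases in the deposited tables. RN7SK had 0 and 38 reads, at least 12.8-fold higher against a floor of 3 reads. AL162581.1 had 40 and 0 reads. Their sums were 40 and 38 reads, a fold of 0.959 (0.599 to 1.53), so the 7SK locus as a whole was alike within counting error. AL139300.1 had 0 and 132 reads (at least 44.4-fold higher), while the kinesin light chain gene KLC1, which it overlaps, had 254 and 148, for a joint fold of 1.11 (0.936 to 1.32). AP000944.5 had 0 and 110 reads beside CDC42EP2 with 196 and 98, for a joint fold of 1.07 (0.877 to 1.31). In the other direction AC087721.2 had 131 and 0 reads (at least 43.2-fold lower) within the locus of NUSAP1, a spindle protein, with 4867 and 5001 reads and a joint fold of 1.01 (0.971 to 1.051). That joint fold follows NUSAP1, whose reads far outnumber those of AC087721.2. AC005538.2 had 129 and 0 reads beside MSL3P1 with 377 and 550, and a joint fold of 1.098 (0.971 to 1.24). These partners were chosen after the values were seen.

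Histone genes present in near-identical copies showed a like pattern, without overlap of the copies, in 2 of the 3 pairs examined. H3C14 had 115 and 0 reads, at least 38.0-fold lower. H3C15, its neighbour on the opposite strand, had 115 and 278 reads, and their sum was 230 and 278 reads, 1.22-fold (1.02 to 1.46). H2AC19 had 798 and 265 reads, a fold of 0.335 (0.291 to 0.386), and its neighbour H2AC18 had 1106 and 1410. Their sum was 1904 and 1675 reads, a fold of 0.888 (0.831 to 0.949), past neither bound. In the H4 pair, H4C15 had 45 and 129 reads and H4C14 682 and 671, so the fall of one copy beside the other's gain was absent there. H4C15 overlaps H3C15, and H4C14 overlaps H3C14, on the opposite strand. Whether reads were counted by strand is not given, so the H4 pair is not separate from the H3 pair. The copies are shown because their promoters are identical: H3C14 and H3C15 shared 246 of 246 aligned bases before the start, and H2AC18 and H2AC19 249 of 249. The last 100 aligned bases lie at chr1:149841209-149841308 (H3C14, minus strand), chr1:149852504-149852603 (H3C15, plus strand), chr1:149842752-149842851 (H2AC18, minus strand) and chr1:149850961-149851060 (H2AC19, plus strand) of GRCh38.p14. A capital would mark a difference, and there is none.
H3C14: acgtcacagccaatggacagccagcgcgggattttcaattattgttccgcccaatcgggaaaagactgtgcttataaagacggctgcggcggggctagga
H3C15: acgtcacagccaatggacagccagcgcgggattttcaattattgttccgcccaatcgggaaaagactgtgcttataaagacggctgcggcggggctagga
H2AC18: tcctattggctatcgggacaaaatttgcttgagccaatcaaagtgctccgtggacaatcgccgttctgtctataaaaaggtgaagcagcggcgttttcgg
H2AC19: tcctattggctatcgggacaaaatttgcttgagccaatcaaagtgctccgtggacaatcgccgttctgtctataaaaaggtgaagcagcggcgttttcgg

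How reads of such copies were shared out is unknown, so each of these values is uncertain on its own. Histone mRNAs of this class end in a stem-loop and not in a poly(A) tail, and 15 of the 19 replication-dependent histone genes listed were still expressed by the threshold, with H1-2 at 778 and 804 TPM.

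Called genes that overlapped no other read feature on their strand, other than the histone genes above, include the following examples. SMAD9, a transducer of BMP signals, had 5 and 34 reads, 6.87-fold (2.67 to 22.5), although its deposited TPM were 0.33 and 0.66. SLX4, the scaffold of DNA repair nucleases, had 2 and 21 reads, 10.6-fold (2.59 to 93.3). RGPD6, one of a family of near-identical RANBP2-like genes, had 65 and 7 reads, a fold of 0.109 (0.0421 to 0.237), although its deposited TPM were 3.11 and 2.45. THSD4 had 37 and 7 reads, a fold of 0.191 (0.0719 to 0.434). The intervals of these genes span a wide range, and with 1 library each the spread between cultures is unknown.

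Among features of 100 CPM or more the differences were smaller and the intervals narrow; the following were chosen after the values were seen. CRKL, a signalling adaptor, had 1297 and 1933 reads and the largest fold among them, 1.505 (1.40 to 1.62). P4HA2, a collagen prolyl hydroxylase, followed at 1.44-fold (1.32 to 1.57). CCNL2, a cyclin linked to splicing, stood at 1.36-fold (1.28 to 1.44). At the other end lay the small mitochondrial ribosomal RNA MT-RNR1 at a fold of 0.793 (0.762 to 0.825) and the ribosomal protein gene RPL8 at 0.800 (0.774 to 0.827). RPL8 stood apart from the other ribosomal protein genes, whose list had a median log2 ratio of -0.02, with 12 of 78 intervals above 1 and 13 below. Among all tested features 16.9% of intervals lay above 1 and 6.25% below.

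The gene lists are described by the median log2 ratio of their tested members beside the median of all tested features. That median was 0.06, with 9129 features (61.1%) above 0. The share above 0 rests on scaling to each library's total and was not recomputed under other scalings. Of all 14935 tested features, 16.9% had an interval above 1 and 6.25% below it. Above 30 CPM, 21.1% had an interval above 1. Beside these shares the counts of small lists, such as 4 of 14 collagens and 4 of 12 integrins, rest on few genes. Of 41 lists with at least 10 tested members, 32 had a median above 0 under this scaling to library totals. Only 6 lay more than 0.1 above the median of all features and 3 more than 0.1 below it. The 6 were collagens, matrix proteases, immediate-early genes, integrins, matrix glycoproteins and the list of long non-coding RNAs. This last list had a median of 0.17 over 28 members, with 12 intervals above 1 and 1 below. Over all 1903 tested lncRNA features the median was 0.09. The list lay only 0.05 above the median of all features in deposited TPM, and 0.09 above it among features of at least 30 CPM. Collagens had a median of 0.28 over 14 members, with 4 intervals above 1 and 0 below. Matrix proteases and inhibitors had a median of 0.27 over 15 members, with 9 above and 0 below. Integrins had a median of 0.20 over 12 members, with 4 above, and matrix glycoproteins and crosslinkers 0.17 over 24 members, with 14 above. Neither list had an interval below 1. Lysosomal genes, not among the 6, had a median of 0.15 over 22 members, with 11 above and 0 below.

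Single members give the size of these differences. SPARC had 18551 and 22310 reads, 1.21-fold (1.19 to 1.24). PSAP, the precursor of the saposins that activate lysosomal lipid breakdown, had 5964 and 7226 reads, 1.22-fold (1.18 to 1.27). The tetraspanin CD63 had 10003 and 11075 reads, 1.12-fold (1.09 to 1.149). The protease CTSL stood at 1.27-fold (1.19 to 1.36). TIMP1 did not differ beyond counting error, at 1.01-fold (0.981 to 1.04). Protein-coding genes with longer transcripts, by the ratio of CPM to TPM, also had slightly higher log2 ratios. The median went from 0.02 in the shortest group to 0.09 in the longest. Among genes of at least 30 CPM these groups had medians of 0.02 and 0.06. The groups also differ in abundance, and the part of length in the list medians was not tested.

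Immediate-early genes, which respond within minutes to serum or stress, had a median of 0.23 over 16 members, with 10 intervals above 1 and 0 below. Over all tested features the shares were 16.9% above and 6.25% below. IER3 had 247 and 348 reads, 1.42-fold (1.21 to 1.68), and the phosphatase gene DUSP1 386 and 484 reads, 1.27-fold (1.11 to 1.45). MYC had 425 and 458 reads, 1.09-fold, with an interval that held 1 (0.951 to 1.24). In the other direction the mitochondrially encoded RNAs had a median of -0.13, with 10 of 15 intervals below 1 and 1 above, that of MT-ND5. Among all 67 features of 1000 CPM or more, a set that includes 10 of these RNAs, 30 intervals lay below 1 and 24 above. WNT signalling had a median of -0.08 over 20 members, with 3 above and 4 below, and nuclear receptors -0.07 over 18.

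**Figure D5:**
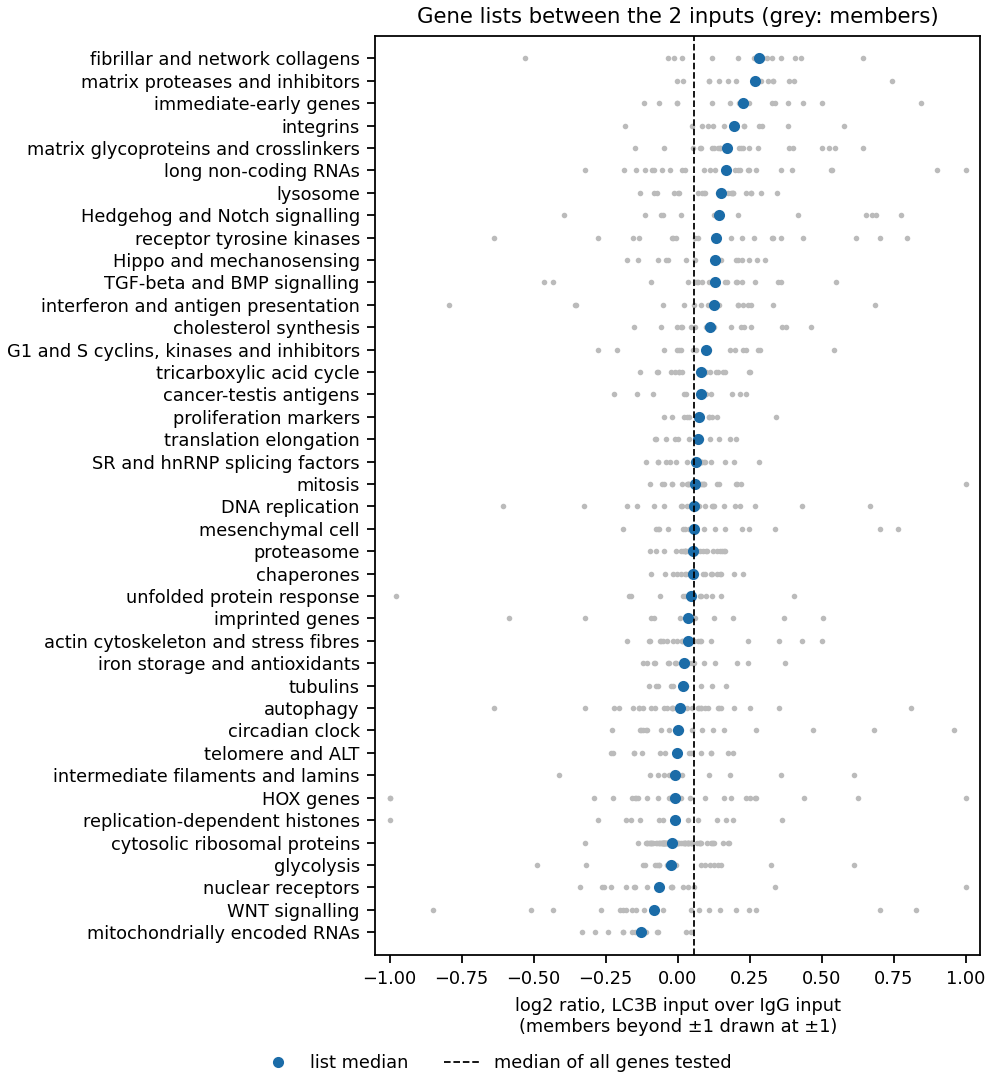
Median log2 ratio of the LC3B input to the IgG input (blue) of 40 of the 41 gene lists with at least 10 tested members, over the members themselves (grey), with a dashed line at the median of all features tested (0.06). Collagens (0.28) and matrix proteases (0.27) lie highest and mitochondrially encoded RNAs (-0.13) lowest, while the members of most lists span both sides of the line.

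Differences in deposited TPM did not always follow those in counts. PLAU, the urokinase gene, stood at 20.5 and 49.5 TPM, although its reads were 444 and 555, 1.26-fold (1.11 to 1.43). CCND1 stood at 77.2 and 94.1 TPM, although its reads were 903 and 866, a fold of 0.968 (0.881 to 1.06). Of 3605 features with at least 500 reads in both inputs, 408 (11.3%) had a length implied by CPM over TPM that differed by more than 10 percent between the inputs. Whether other lengths or other read assignments lie behind this was not tested, and comparisons between the inputs above rest on counts.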

How the data were processed

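The data are 2 input libraries of U2OS cells, 1 per group, from a series of 4; the 2 pull-downs were not analysed here. The deposited table of counts holds whole reads for each Ensembl gene, per the file headers, once the commas between digits were removed. A second deposited table holds TPM with the same total in each library, per the file headers. The submitters' processing notes name STAR 2.7.1a, cutadapt 2.8 and the build hg38. The counter, the annotation, whether strand was used, transcript lengths, and how duplicates and reads of several places were treated: not given in the sources used here. Overlapping or copied genes may therefore share reads.

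Counts were scaled to each library's total (CPM) and features with a mean of at least 1 CPM were tested. Folds (LC3B input over IgG input) have exact conditional binomial (Clopper-Pearson) 95% intervals. A library at 0 was set to a floor of 3 reads, and log2 ratios used a pseudocount of 0.5. The robust SD is the scaled median absolute deviation. Features sharing a symbol (68) were not named. Named were the genes of highest mean TPM (20 protein-coding, 10 lncRNA, 3 mitochondrial), up to 6 highest members of each of 50 gene lists with members below 1 TPM of the lineage, cell type, receptor, cell cycle, telomere and clock lists, and the 8 called features of most extreme bound in each direction; others are named as examples chosen after their values were seen. Members and lists were chosen with earlier results of these data known. Promoters are RefSeq's (GRCh38.p14). Intervals, size factors and the spread were tested on simulated data. Python 3.11.15, numpy 2.4.6, pandas 2.3.3, scipy 1.17.1 and matplotlib 3.10.9 were used. Alternatives were other scalings, filters, bounds, pseudocounts, thresholds, TPM and thinning. One gene list is not reported here.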

Additional observations from a re-analysis of the deposited data

How the results depend on the processing

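The main counts of called features were 19 higher and 18 lower in the LC3B input. They were 65 and 42 without a filter, 4 and 4 with a filter of 5 CPM, 95 and 43 with bounds of 1.5 and its inverse, and 405 and 192 by a point fold of 2. By alternatives added after seeing the data, they were 2522 and 933 for an interval that leaves out 1, and 10 and 7 without features that overlap another read feature on the same strand, where fewer features were tested. TMM and median-of-ratios scaling gave 16 and 21, totals without mitochondrial genes 17 and 20; these scalings moved the median log2 ratio of all features from 0.06 to -0.01, 0.00 and 0.02, and 34 of the 37 calls held in all 3, the exceptions being AL355388.1, H4C15 and MFHAS1. Expressed features numbered 8794 at 5 TPM. The 10 most abundant genes, mitochondrial ones included, held 24.4% and 22.4% of the reads and 25.3% and 23.6% of the TPM; the 10 most abundant outside mitochondrial genes, another set, held 6.27% and 6.08% of the reads outside them. Mitochondrial genes held 23.6% and 21.7% of the TPM. The median size of the log2 ratio was 0.18 in TPM, 0.34 after thinning to 1000000 reads and 0.15 for protein-coding features, against 0.16. Lists more than 0.1 from the median of all features numbered 9 of 41 in the main setting and 4 of 21 with members of at least 30 CPM (added after seeing the data), where lists such as collagens, proteases and integrins had too few members. Relative to the median of all features, mitochondrially encoded RNAs stayed below in all 8 settings, and collagens, proteases and integrins above in the 7 settings that could be run for them. The 3 other scalings shift all features almost alike, so they could hardly move this comparison and are no check of it. In deposited TPM the distance from the median of all features was -0.18 for mitochondrially encoded RNAs, 0.12 for collagens, 0.15 for proteases and 0.17 for integrins. No paired analysis was possible because each group is 1 library. No library could be left out for the same reason. Depth limits features below about 3 CPM, whose measured spread, narrowed by the pseudocount, was little above counting error.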
